A study of Mus musculus with 14 samples.

Results

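The genes that signal DNA breaks through the kinases ATM and ATR were followed in mouse embryonic fibroblasts (MEFs) in which Tip60, the acetyltransferase encoded by Kat5, had been deleted. The 10 genes are Atm, Atr, Prkdc, Chek1, Chek2, H2afx, Mdc1, Rnf8, Rnf168 and Trp53bp1. They were taken as a named list of break-signalling genes, found by gene identifier in the count table of every library. All 10 were found among 26270 genes with an identifier, and all 10 were among the 14327 genes that passed the filter on low counts. H2afx is listed under its newer symbol H2ax.

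RNA sequencing covered 14 libraries in 4 groups: Tip60-/- (KO) cells at day 3 (n = 3) and day 5 (n = 4), and Tip60+/+ (control) cells at day 3 (n = 3) and day 5 (n = 4). The cells came from E13.5 embryos and were cultured in 3% oxygen. The labels give 1 treatment text for all samples, deletion induced with 250 nM 4-hydroxytamoxifen (4-OHT), a ligand that activates tamoxifen-dependent Cre recombinases. They do not state separately whether control cells received the drug, and they name neither the Cre driver nor the deleted exons. KO cells came from litters 136, 153 and 159 and control cells from litters 218 and 219, so genotype and litter cannot be told apart. Male embryos gave 5 of the 7 KO libraries and 1 of the 7 control libraries. Control day 3 replicates 1 and 2 carry the same embryo label, and p-values measure the spread between these libraries, part of which may be technical.

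Kat5, the deleted gene, was lower in KO cells at both days, with log2 fold changes of -0.68 ± 0.086 at day 3 and -0.75 ± 0.071 at day 5 (SE). Its RNA thus remained at 0.62 and 0.60 of the control level. The counts cover the whole gene and the deleted exons are not named, so they do not show how complete the deletion was. The 7 KO libraries held 17.3 to 21.1 CPM of Kat5, against 29.8 to 32.3 CPM in the 7 control libraries, where CPM is the count relative to the scaled total of its library. Library totals ran from 2182919 counts (KO day 3 replicate 3) to 39113170 counts (KO day 3 replicate 2). All 10 fibroblast markers on the list used were detected, with summed levels of 45700 to 56080 CPM in KO and 31150 to 36310 CPM in control cells at day 3, without overlap, and of 31540 to 36550 CPM in KO and 32400 to 48780 CPM in control cells at day 5, with overlap. Cartilage markers (5 of 5 matched, 4 past the filter, none at 0 throughout) summed to 2282 to 2675 CPM in KO and 73.6 to 167 CPM in control cells at day 3, and to 1825 to 3779 CPM in KO and 181 to 2591 CPM in control cells at day 5. At day 3, macrophage and leukocyte markers were lower in KO (47.7 to 69.1 CPM) than in control cells (74.9 to 103 CPM). Endothelium and neural and glial markers were higher, all without overlap. At day 5, endothelium was higher in KO (12.6 to 17.5 CPM) than in control cells (4.89 to 7.56 CPM). Skeletal muscle was lower (184 to 282 and 348 to 422 CPM), both without overlap. Epithelium and blood markers overlapped at both days. The part of all these markers in the results was not tested. Control day 5 replicate 4, the only library from litter 219 and the only male control, held the 2591 CPM of cartilage markers and stood apart from the other 3 control libraries of that day for several genes below.

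In the textbook account of this pathway, much of it worked out in human cells, ATM is recruited to double-strand breaks by the MRE11-RAD50-NBS1 (MRN) complex, and Tip60 acetylates ATM as part of its activation. ATR responds to single-stranded DNA coated by RPA at stalled forks and resected ends, and DNA-PKcs, the product of Prkdc, acts in end joining. ATM phosphorylates CHK2 and ATR phosphorylates CHK1, the effector kinases encoded by Chek2 and Chek1. At the break, phosphorylated H2AX is bound by MDC1, which recruits the ubiquitin ligase RNF8. RNF8 and RNF168 then ubiquitinate chromatin, and 53BP1 (Trp53bp1) binds the mark. These steps act on proteins that are already present, and the RNA levels given here do not measure their activity.

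Promoters, from 250 bases before to 50 bases after the annotated start, were available for 8 of the 10 genes (RefSeq, build GRCm38.p6). None was available for Prkdc and H2afx, which differed between KO and control cells at day 3 and day 5 respectively. The promoters of Chek2, Rnf168 and Atr are shown because these genes differed too. They were searched on both strands for 3 words: the E2F word TTTNGCGC, the cell cycle homology region (CHR) TTTGAA, and CCAAT. Matches are in capitals and the rest is in lower case, 5′ to 3′ along the gene.
Chek2, chr5:110839733-110840032, plus strand: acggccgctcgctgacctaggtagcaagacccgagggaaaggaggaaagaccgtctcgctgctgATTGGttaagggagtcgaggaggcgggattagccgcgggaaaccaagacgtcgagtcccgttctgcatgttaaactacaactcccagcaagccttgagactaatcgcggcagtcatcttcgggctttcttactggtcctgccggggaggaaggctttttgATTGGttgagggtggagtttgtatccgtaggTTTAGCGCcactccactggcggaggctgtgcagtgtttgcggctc
Rnf168, chr16:32277211-32277510, plus strand: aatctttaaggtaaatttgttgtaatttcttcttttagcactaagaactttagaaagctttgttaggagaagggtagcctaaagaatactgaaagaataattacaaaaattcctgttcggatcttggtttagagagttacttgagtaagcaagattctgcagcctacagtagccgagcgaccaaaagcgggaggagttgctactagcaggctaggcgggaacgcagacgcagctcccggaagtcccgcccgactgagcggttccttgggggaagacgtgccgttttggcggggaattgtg
Atr, chr9:95857347-95857646, plus strand: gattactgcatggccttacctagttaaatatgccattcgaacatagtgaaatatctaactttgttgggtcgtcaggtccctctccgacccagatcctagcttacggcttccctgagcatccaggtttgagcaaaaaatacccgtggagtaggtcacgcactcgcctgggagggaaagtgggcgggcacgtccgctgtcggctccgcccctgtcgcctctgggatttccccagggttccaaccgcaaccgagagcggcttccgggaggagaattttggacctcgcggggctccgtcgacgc
The Chek2 window is placed on an annotated start at base 110839983, which lies 183 bases inside the gene span given further on. Counted from that base as 1, Chek2 was the only gene of the 8 with the E2F word, at position 6, and it also held CCAAT on the opposite strand at positions -186 and -26. None of the 3 words was found in the Rnf168 and Atr windows. CCAAT was also found in the windows of Atm, Mdc1 and Rnf8 and CHR in that of Rnf8, where CHR and CCAAT share 1 base. Of 32851 promoters of this length, 1.38% held the E2F word, 17.9% CHR and 37.4% CCAAT. A match describes these letters and does not show binding. Other forms of each site were not searched for, so a window without a match may hold them.

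Levels per gene length (RPKM, the CPM divided by the gene's length in kilobases) placed H2afx first in every group, at 24.6 ± 3.85 in KO and 26.7 ± 2.73 in control cells at day 3, and 32.4 ± 0.550 in KO and 44.8 ± 7.33 in control cells at day 5 (SD). H2afx did not overlap the next gene in any group. The libraries were made with a poly(A) kit, so the H2afx values here and below cover only RNA with a poly(A) tail. Rnf8, the first ligase at the break, was second in every group, between 10.7 RPKM (KO day 3) and 12.1 RPKM (KO day 5) on average. Its range overlapped that of the gene below it in every group except control day 5. Prkdc and Chek1 were the lowest in both day 3 groups. In KO cells at day 3 they averaged 2.54 ± 0.407 and 2.54 ± 0.840 RPKM and overlapped. In control cells at day 3, Prkdc averaged 1.46 ± 0.385 RPKM and Chek1 2.84 ± 0.396 RPKM, with no overlap. At day 5 Prkdc alone was lowest, at 2.25 ± 0.193 RPKM in KO and 1.86 ± 0.0628 RPKM in control cells.

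The place of Chek2 in this order differed between the genotypes at day 3. It averaged 5.32 ± 0.412 RPKM in KO cells, rank 8 of 10, and 9.33 ± 0.382 RPKM in control cells, rank 3 of 10. In the control group its range lay above those of Rnf168, Atr, Trp53bp1, Mdc1 and Atm. In the KO group it overlapped Atm and lay below Mdc1 and Trp53bp1. The middle genes of each group (Atr, Mdc1, Trp53bp1) averaged between 5.91 and 8.95 RPKM over the 4 groups, and most neighbours among them overlapped.

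**Figure D1:**
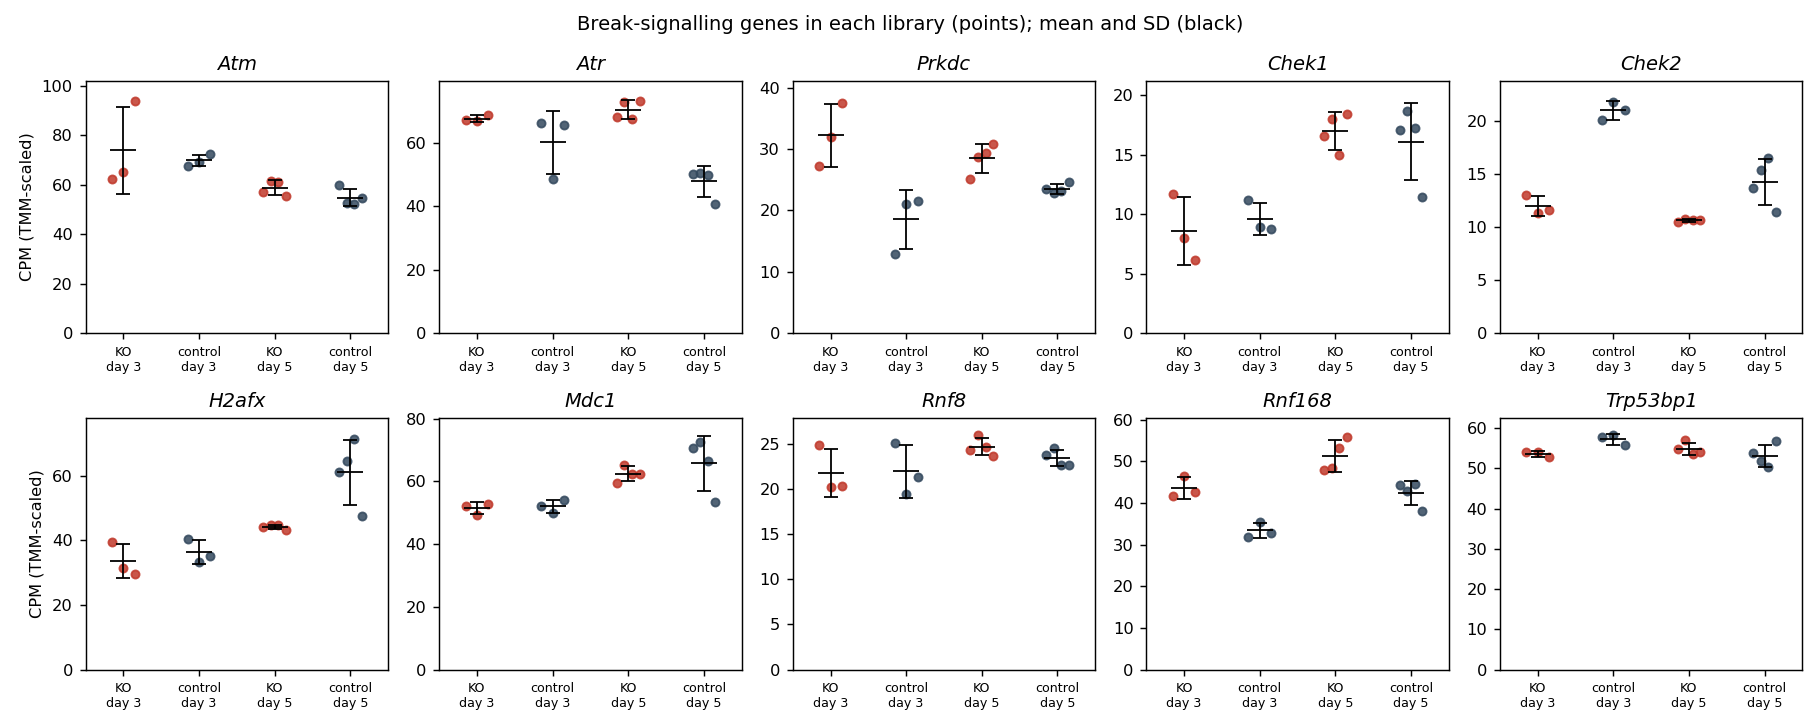
Level of each of the 10 genes in every library, in CPM after TMM scaling (y axes start at 0). Points are libraries of KO cells (red) and control cells (dark), and black marks are the mean and SD. Chek2 lies lower and Rnf168 higher in KO than in control libraries at both days without overlap, while Rnf8 overlaps at both days.

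At day 3, Prkdc and Rnf168 were higher and Chek2 was lower in KO than in control cells, while the other 7 genes did not pass the test. Of all genes tested, 50.9% passed at day 3 (24.6% higher and 26.2% lower), and the 3 of 10 counted here lie below that background. The median size of the log2 fold change was 0.09 over the 10 genes and 0.43 over all genes tested. In bulk RNA, fewer cells with a transcript and less transcript per cell cannot be told apart.

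Prkdc, the catalytic subunit of DNA-PK (chr16:15637444-15842239), had 27.2, 31.9 and 37.5 CPM in KO cells at day 3, against 12.9, 21.1 and 21.6 CPM in control cells. Every KO library lay above every control library, and control replicate 1 was well below the other 2. The log2 fold change was 0.78 ± 0.17 (SE, adjusted p = 0.0014, edgeR quasi-likelihood test with Benjamini-Hochberg adjustment). Without control day 3 replicate 1 it was 0.59 (adjusted p = 0.00302).

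Chek2, the effector kinase of ATM (chr5:110839800-110874140), had 13.0, 11.3 and 11.6 CPM in KO cells at day 3, against 20.1, 21.8 and 21.0 CPM in control cells. The groups were far apart, and the spread within each was small beside the gap. Chek2 fell by 42.1% in the fit, a log2 fold change of -0.79 ± 0.13 (adjusted p = 0.000174). Chek1, the effector kinase of ATR, had 11.7, 7.98 and 6.14 CPM in KO cells and 11.2, 8.96 and 8.77 CPM in control cells. These groups overlapped, with a log2 fold change of -0.08 ± 0.23 (adjusted p = 0.792).

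Rnf168, the ligase that spreads the ubiquitin mark (chr16:32277461-32301442), had 41.7, 46.5 and 42.6 CPM in KO cells at day 3, against 31.8, 35.5 and 32.9 CPM in control cells. The groups did not overlap, and the log2 fold change was 0.37 ± 0.090 (adjusted p = 0.00357). The other genes of the chromatin arm were close between the genotypes: H2afx had 29.6 to 39.5 CPM in KO and 33.4 to 40.5 CPM in control cells, Mdc1 49.3 to 52.8 and 49.9 to 53.9 CPM, and Rnf8 20.2 to 24.9 and 19.4 to 25.1 CPM. These 3 overlapped, with log2 fold changes of -0.09, -0.01 and 0.02, and none passed the test. Trp53bp1 had 54.2, 54.0 and 52.7 CPM in KO cells, against 57.9, 58.2 and 55.7 CPM in control cells. Its groups did not overlap, but the log2 fold change of -0.10 ± 0.066 did not pass (adjusted p = 0.239).

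The 2 apical kinases besides Prkdc did not pass at day 3. Atm had 62.5, 65.3 and 94.1 CPM in KO cells and 67.8, 69.4 and 72.3 CPM in control cells. KO replicate 4 was far above all other libraries, and the other 2 KO libraries lay below every control library. The log2 fold change was 0.09 ± 0.12 (adjusted p = 0.562), and without KO day 3 replicate 4 it was -0.13 (adjusted p = 0.239). Atr had 67.0, 66.7 and 68.8 CPM in KO cells, against 66.2, 48.5 and 65.4 CPM in control cells. The groups did not overlap, but the gap to control replicates 1 and 3 was under 2 CPM, and the log2 fold change of 0.17 ± 0.11 did not pass (adjusted p = 0.213). In all, 5 of the 10 genes had groups that did not overlap at day 3, against 57.8% of all genes tested.

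**Figure D2:**
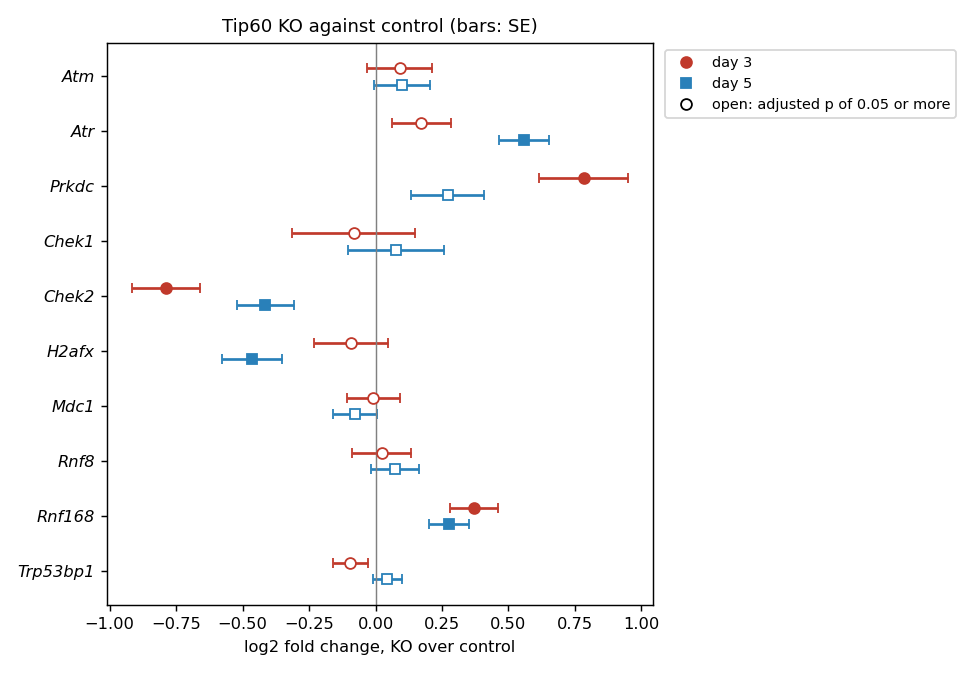
Log2 fold change of KO over control cells for the 10 genes (x axis), with bars of 1 SE, at day 3 (red circles) and day 5 (blue squares). Filled symbols had an adjusted p under 0.05 and open ones did not. Prkdc, Chek2 and Rnf168 are filled at day 3, and Atr, Chek2, H2afx and Rnf168 at day 5.

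At day 5, Atr and Rnf168 were higher and Chek2 and H2afx were lower in KO cells, and the other 6 genes did not pass. Over all genes tested, 52.5% passed at day 5 (26.3% higher and 26.2% lower), and the 4 of 10 counted here again lie below it. The median size of the log2 fold change was 0.19 over the 10 genes and 0.37 over all genes.

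Atr, the kinase of stalled forks (chr9:95857597-95953217), had 68.2, 72.7, 67.3 and 73.0 CPM in KO cells at day 5, against 50.0, 50.4, 49.9 and 40.6 CPM in control cells. Every KO library was above every control library by a wide gap, and control replicate 4 was the lowest. The log2 fold change was 0.56 ± 0.095 (adjusted p = 0.000246), which is 47.3% more in KO cells. Without control day 5 replicate 4 it was 0.49 (adjusted p = 0.000271).

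H2afx, the gene of the histone variant phosphorylated around breaks (chr9:44334715-44336077), had 44.1, 44.6, 44.7 and 43.1 CPM in KO cells at day 5, against 61.0, 64.4, 71.4 and 47.6 CPM in control cells. The 4 KO libraries lay within 2 CPM of each other, and only control replicate 4 came near them. The log2 fold change was -0.46 ± 0.11 (adjusted p = 0.0036), and -0.57 without control day 5 replicate 4. Mdc1, whose product binds phosphorylated H2AX, had 59.5 to 65.3 CPM in KO cells and 53.3 to 72.7 CPM in control cells. Its groups overlapped only through control replicate 4, and its log2 fold change of -0.08 ± 0.083 (adjusted p = 0.45) became -0.17 (adjusted p = 0.0253) without that library.

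Chek2 had 10.4, 10.7, 10.7 and 10.6 CPM in KO cells at day 5, against 13.7, 15.4, 16.5 and 11.4 CPM in control cells. The groups did not overlap, again with control replicate 4 nearest to the KO libraries. The log2 fold change was -0.42 ± 0.11 (adjusted p = 0.00478), and -0.51 without control day 5 replicate 4. Rnf168 had 47.8, 48.3, 53.3 and 55.8 CPM in KO cells, against 44.2, 42.8, 44.5 and 38.0 CPM in control cells. All KO libraries were above all control libraries, with a log2 fold change of 0.28 ± 0.075 (adjusted p = 0.00636) and of 0.23 without control day 5 replicate 4. Thinned to the total of the shallowest library, Chek2, H2afx and Rnf168 did not pass at day 5 (adjusted p of 0.0625, 0.121 and 0.106), with log2 fold changes of -0.51, -0.25 and 0.27.

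Prkdc had 25.0, 28.7, 29.3 and 30.8 CPM in KO cells at day 5, against 23.5, 22.8, 23.1 and 24.7 CPM in control cells. The lowest KO library lay just above the highest control library, and the log2 fold change of 0.27 ± 0.14 did not pass (adjusted p = 0.108). It passed in 4 alternatives, among them a fit of the day 5 groups alone (adjusted p = 0.0135). Atm (55.5 to 61.7 CPM in KO and 52.3 to 59.9 CPM in control cells), Chek1 (15.0 to 18.5 and 11.4 to 18.7 CPM), Rnf8 (23.7 to 25.9 and 22.6 to 24.5 CPM) and Trp53bp1 (53.6 to 57.0 and 50.3 to 56.7 CPM) overlapped and did not pass. Their log2 fold changes lay between 0.04 (Trp53bp1) and 0.10 (Atm). Groups did not overlap for 5 of the 10 genes at day 5, against 47.4% of all genes tested.

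Whether the KO effect differed between the days was tested as the effect at day 5 minus that at day 3. None of the 10 genes passed, against 14.3% of all genes tested, and 3 had an unadjusted p under 0.05 by the same edgeR test. Atr had a difference of 0.39 ± 0.15 (adjusted p = 0.0943), Prkdc of -0.51 ± 0.22 (adjusted p = 0.129) and Chek2 of 0.37 ± 0.17 (adjusted p = 0.15), all on the log2 scale. H2afx had a difference of -0.37 ± 0.18 (adjusted p = 0.183). Atr and H2afx passed at day 5 alone and Prkdc at day 3 alone, but for none of them did the difference between the days pass. Atr passed without control day 3 replicate 2 (0.52, adjusted p = 0.0157) and H2afx without control day 5 replicate 4 (-0.49, adjusted p = 0.0272).

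Between day 3 and day 5, 1 of the 10 genes changed in KO cells and 7 changed in control cells. The background shares were 12.0% of all genes in KO cells (4.98% higher and 7.06% lower at day 5) and 38.3% in control cells (18.3% higher and 19.9% lower). In KO cells Chek1 alone passed, and it was higher at day 5. In control cells Chek1, H2afx, Mdc1 and Rnf168 were higher at day 5, and Atm, Atr and Chek2 were lower. The count in KO cells is near its background and that in control cells lies above its own. Whether the day effect differs between the genotypes is the same test as the difference of KO effects above, which no gene passed.

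Chek1 in KO cells had 15.0 to 18.5 CPM at day 5 and 6.14 to 11.7 CPM at day 3, with no overlap and a log2 fold change of 0.91 ± 0.21 (adjusted p = 0.0119). Without KO day 3 replicate 4 it was 0.67 (adjusted p = 0.0694). In control cells Chek1 had 11.4 to 18.7 CPM at day 5 and 8.77 to 11.2 CPM at day 3, also without overlap (0.75 ± 0.21, adjusted p = 0.0109). H2afx in KO cells had 43.1 to 44.7 CPM at day 5 and 29.6 to 39.5 CPM at day 3, apart but not past the threshold (0.37 ± 0.13, adjusted p = 0.0748). In control cells H2afx had 47.6 to 71.4 CPM at day 5 and 33.4 to 40.5 CPM at day 3, also apart, and it passed (0.75 ± 0.13, adjusted p = 0.000365).

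Chek2 in KO cells had 10.4 to 10.7 CPM at day 5 and 11.3 to 13.0 CPM at day 3, apart by less than 1 CPM and not past the threshold (-0.20 ± 0.12, adjusted p = 0.335). In control cells it fell, with 11.4 to 16.5 CPM at day 5 and 20.1 to 21.8 CPM at day 3 (-0.57 ± 0.11, adjusted p = 0.00124). Mdc1 and Rnf168 had 0.27 and 0.25 on the log2 scale in KO cells without passing, and rose in control cells, by 0.34 ± 0.091 and 0.34 ± 0.083. Atm had -0.34 ± 0.11 in KO cells (adjusted p = 0.0686) and -0.35 ± 0.11 in control cells (adjusted p = 0.0255). Atr had 0.06 ± 0.10 in KO cells (adjusted p = 0.806) and -0.33 ± 0.10 in control cells (adjusted p = 0.021). The control groups of Mdc1 overlapped between the days (53.31 to 72.66 CPM at day 5 and 49.92 to 53.94 CPM at day 3). Those of Atr did too (40.65 to 50.45 CPM at day 5 and 48.52 to 66.21 CPM at day 3). When thinned, Atr, Chek2 and Mdc1 did not pass in control cells by the same edgeR test (adjusted p of 0.1111, 0.07486 and 0.1265).

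Libraries of the same embryo at both days can be paired. With the embryo as a block, KO cells had 3 genes past the threshold, Chek1, H2afx (0.39, adjusted p = 0.0458) and Mdc1 (0.30, adjusted p = 0.0416). Over all genes tested, 1777 passed in KO cells with the block, against 1725 without it. In control cells Atm and Atr then did not pass (adjusted p of 0.149 and 0.128). Leaving out control day 3 replicates 2 or 3, or control day 5 replicates 2 or 3, also ended the Atm result in control cells (adjusted p of 0.0578 to 0.0854), and leaving out control day 3 replicates 1 or 3 ended that of Atr (0.103 and 0.107). Groups of the 2 days did not overlap for 6 genes in KO cells and 6 in control cells, against 26.9% and 42.7% of all genes.

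**Figure D3:**
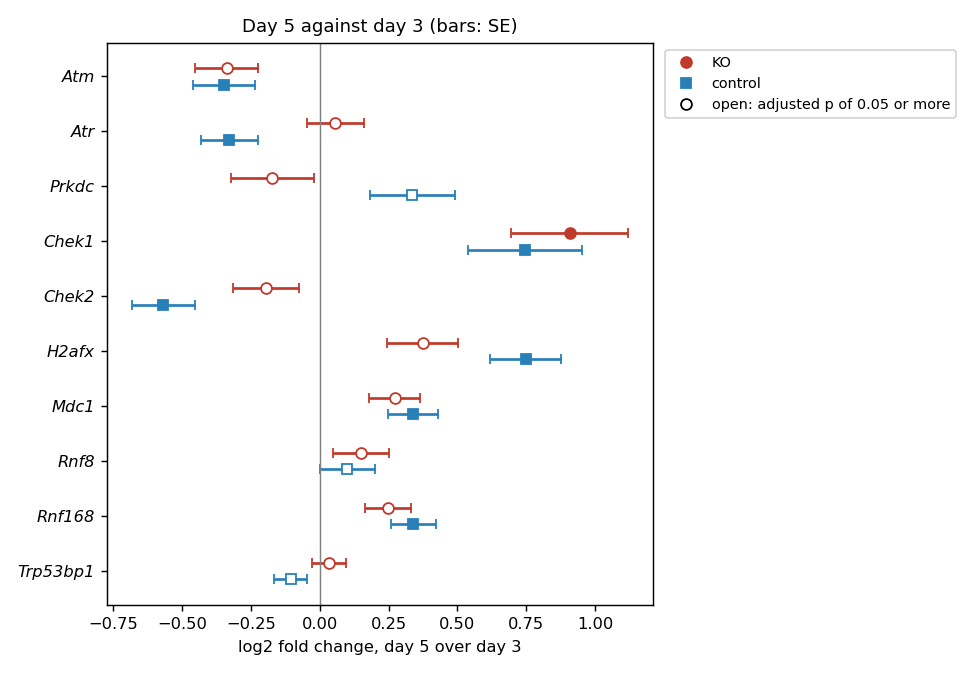
Log2 fold change of day 5 over day 3 for the 10 genes (x axis), with bars of 1 SE, in KO cells (red circles) and control cells (blue squares). Filled symbols had an adjusted p under 0.05. Chek1 is the 1 gene filled in KO cells, and 7 genes are filled in control cells, 4 above and 3 below 0.

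Around these 10 genes, 80 of 81 listed genes of the pathway were tested. At day 3, 18 were higher, 23 were lower and 39 did not pass in KO cells, and at day 5 these counts were 17, 18 and 45. The 41 genes called at day 3 are near the background share of that day, and the 35 called at day 5 lie below theirs. The shares of all genes given above are the background for each list that follows. The median log2 fold change over the 80 genes was 0.0046 at day 3 and 0.0055 at day 5, against -0.0036 and 0.021 over all genes.

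Upstream of ATR, 6 of 15 genes for its activation and for the 9-1-1 clamp were higher and 2 were lower at day 3, and 5 were higher and 3 lower at day 5. Hus1, a clamp subunit, was higher at both days, at 27.1 ± 1.93 CPM in KO and 19.5 ± 2.18 CPM in control cells at day 3, and 28.5 ± 1.64 CPM in KO and 17.3 ± 0.915 CPM in control cells at day 5 (SD). Rad9a, the partner subunit, was lower at day 3 (15.9 ± 2.19 CPM in KO and 29.9 ± 2.27 CPM in control cells) and at day 5 (log2 fold change -0.43), while its paralogue Rad9b was higher at day 3 (1.10) and at day 5 (3.20 ± 0.636 CPM in KO and 1.34 ± 0.385 CPM in control cells). Clspn, which bridges ATR to CHK1, averaged 13.4 CPM in KO and 6.49 CPM in control cells at day 3 (1.05 ± 0.19), and had 0.21 at day 5 without passing. Rpa1, the large RPA subunit, had log2 fold changes of 0.35 at day 3 (adjusted p = 0.00461) and -0.45 at day 5 (adjusted p = 0.000159). Among 5 genes of ATM activation with MRN, Atmin alone passed, at day 3 (-0.25 ± 0.097, adjusted p = 0.0407), and none passed at day 5.

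Of 7 genes that assemble the kinases of this family, 1 was higher and 2 lower at day 3, and 3 were higher and 1 lower at day 5. Ruvbl2, an ATPase shared by several chaperone and chromatin complexes including that of Tip60, averaged 38.1 ± 10.5 CPM in KO and 80.5 ± 4.87 CPM in control cells at day 3, and 37.9 ± 0.386 CPM in KO and 66.8 ± 14.6 CPM in control cells at day 5. Tti1, of the TELO2 complex that stabilises these kinases, was higher at both days (0.46 and 0.31), and Pih1d1 was lower at day 3 (-0.27) and higher at day 5 (0.21). Among 3 other genes of the family, Mtor was higher at both days (0.39 ± 0.074 and 0.17 ± 0.062), and Smg1 and Trrap did not pass.

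In the end-joining list of 9 genes beside Prkdc, 4 were higher and 1 lower at day 3, and 3 were higher and 1 lower at day 5. Xrcc6, the Ku70 gene, was lower at both days, at 24.4 ± 0.660 CPM in KO and 34.5 ± 2.33 CPM in control cells at day 3, and 25.9 ± 1.27 CPM in KO and 35.3 ± 4.09 CPM in control cells at day 5. Xrcc5, the Ku80 gene, was higher at day 3 (0.34 ± 0.092, adjusted p = 0.0064). It had 0.02 at day 5 and did not pass. Xrcc4, the ligase partner, was higher at day 3 (0.47) and day 5 (0.35), as was Poll, a gap-filling polymerase (0.55 and 0.46). Dclre1c, the Artemis nuclease, had 0.26 at day 3 without passing (adjusted p = 0.662) and was higher at day 5 (0.70).

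Downstream of the ubiquitin mark, 2 of 8 53BP1 effectors were higher and 3 lower at day 3, and 1 was higher and 1 lower at day 5. Shld2, a shieldin subunit, was higher at both days (0.66 and 0.39), and Pagr1a was lower at both (-0.43 and -0.32). Nudt16l1, which binds 53BP1 and blocks its reader domain, was lower at day 3 (-0.49) and had -0.09 at day 5 without passing. In the BRCA1-A list of 7, Brca1 was higher at day 3 (1.00 ± 0.19) and had 0.20 at day 5 without passing, and Abraxas1, the scaffold subunit, was lower at day 3 (-0.34) and higher at day 5 (0.45).

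Among 12 genes that act in writing or trimming ubiquitin at breaks, 1 was higher and 5 lower at day 3, and 1 was higher and 4 lower at day 5. Otub2, a deubiquitinase, had the lowest log2 fold change among the listed genes at day 3, at 11.4 ± 1.08 CPM in KO and 34.8 ± 2.82 CPM in control cells (-1.59 ± 0.13, adjusted p = 4.12e-07). At day 5 it had -0.09 and did not pass. Otub1 (-0.56 and -0.21) and Rnf4, a SUMO-targeted ligase (-0.43 and -0.30), were lower at both days. Trip12, a ligase known to restrain RNF168, had -0.11 at day 3 without passing and was lower at day 5 (-0.22). L3mbtl2, which helps recruit RNF168, was higher at both days (0.30 and 0.43).

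The phosphatases that remove H2AX and checkpoint phosphorylation were lower in KO cells in 3 of 6 genes at day 3, with none higher, and in 4 of 6 at day 5, with 1 higher, where 26.2% of all genes were lower at each day. The 3 of 6 called at day 3 lie near the background share of 50.9% called in either direction. Ppp4c, Ppp4r2 and Ppp2ca passed at both days, with log2 fold changes of -0.31, -0.40 and -0.33 at day 3 and of -0.42, -0.43 and -0.43 at day 5. Ppp4c averaged 67.5 ± 2.25 CPM in KO and 90.5 ± 2.34 CPM in control cells at day 5. Of 8 direct checkpoint targets, 5 were lower and 2 higher at day 3, and 4 were lower and 1 higher at day 5, beside the same background. Trp53 averaged 58.6 ± 6.89 CPM in KO and 100.1 ± 8.78 CPM in control cells at day 3, and 63.6 ± 2.05 CPM in KO and 101.5 ± 10.2 CPM in control cells at day 5. Mdm2, the p53 ligase (-0.77 and -0.36), and Cdc25a, a phosphatase that CHK1 marks for destruction (-0.51 and -0.36), were lower at day 3 and day 5. Cdc25b had -0.20 at day 3 without passing and was lower at day 5 (-0.54). Mdm4 was lower at day 3 (-0.24) and higher at day 5 (0.53).

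**Figure D4:**
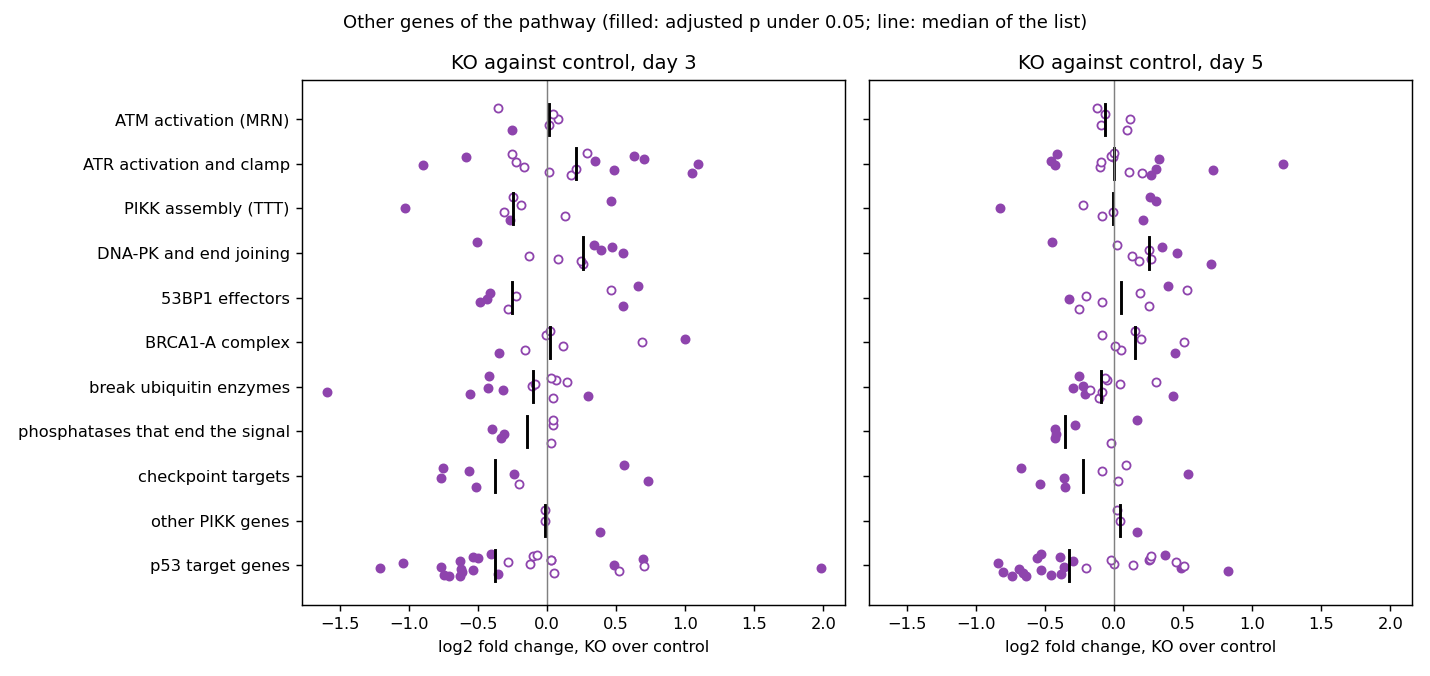
Log2 fold change of KO over control cells (x axes) for the listed genes of the pathway and for p53 target genes, at day 3 (left) and day 5 (right). Each point is a gene, filled where its adjusted p was under 0.05, and the short black lines are list medians. Points lie on both sides of 0 in nearly every list, and 14 of the 26 p53 targets are filled below 0 at each day.

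RNA readouts that the pathway is known to act on were set beside these genes. Of 26 p53 target genes, 14 were lower and 3 higher at day 3, and 14 were lower and 4 higher at day 5, where 26.2% of all genes were lower at each day. Cdkn1a, the CDK inhibitor p21, averaged 286 ± 22.1 CPM in KO and 439 ± 8.53 CPM in control cells at day 3, and 272 ± 5.32 CPM in KO and 475 ± 39.5 CPM in control cells at day 5. Polk (-0.63 and -0.29), Aen (-0.63 and -0.74) and Ei24 (-0.62 and -0.69) were lower at day 3 and day 5. Fas, the death receptor, was higher at day 3, at 18.8 ± 4.75 CPM in KO and 4.77 ± 0.529 CPM in control cells, and at day 5 (0.48). The 26 genes summed to 3161 to 3355 CPM in KO and 3736 to 3935 CPM in control cells at day 3, and to 2758 to 3609 CPM in KO and 4117 to 4229 CPM in control cells at day 5, with no overlap at either day.

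Cell cycle genes were set beside Chek1 and H2afx, which are known to vary with the cycle. Of 20 G2/M genes, 11 were higher and 0 lower in KO cells at day 3, and 0 were higher and 7 lower at day 5. Of 20 G1/S genes, 8 were higher and 2 lower at day 3, and 0 higher and 6 lower at day 5. Over all genes tested, 24.6% were higher and 26.2% lower at day 3, and 26.3% higher and 26.2% lower at day 5. The 11 and 10 of 20 called at day 3 are near the 50.9% of all genes called then. The 7 and 6 of 20 called at day 5 lie below the 52.5% of all genes called then. For the KO effect at day 5 minus that at day 3, 12 G2/M and 7 G1/S genes were lower and 0 were higher. Over all genes tested, 14.3% passed in that contrast. The mitotic genes Nuf2, Plk1 and Cdc20 were higher at day 3 (1.37, 0.88 and 0.93), and Ube2c, Bub1b and Plk1 were lower at day 5 (-0.81, -0.70 and -0.51). Nuf2 and Cdc20 did not pass at day 5, nor Ube2c and Bub1b at day 3. Rrm2 and Mcm5, of nucleotide supply and the replicative helicase, were higher at day 3 (1.29 and 1.11), Mcm2 was lower at both days (-1.19 and -0.76), and Ccne1 was higher at day 3 (0.44) and lower at day 5 (-0.52). Mcm4 was lower at day 5 (-0.59). Between day 3 and day 5, 17 of the 20 G2/M genes rose in KO cells and 20 of 20 in control cells, and 13 and 17 of the 20 G1/S genes did, where 4.98% of all genes rose in KO and 18.3% in control cells. The G2/M genes summed to 607 to 947 CPM in KO and 456 to 619 CPM in control cells at day 3. At day 5 they summed to 1208, 1284, 1313 and 1346 CPM in KO cells, against 1760, 1798, 1773 and 1150 CPM in control cells, where the last value is control replicate 4. Without that library, 14 G2/M genes and 11 G1/S genes passed at day 5, where 8373 of all genes did. Without control day 5 replicates 1, 2 or 3 or KO day 5 replicate 4, 3 G1/S genes passed, where 6499 to 6873 of all genes did. Without KO day 3 replicate 2, 4 G2/M and 6 G1/S genes passed at day 3, where 6694 of all genes did. Without control day 3 replicates 2 or 3, 4 or 5 G2/M genes passed, where 6274 and 6348 of all genes did. The part of the cell cycle in the values of Chek1, H2afx and Mdc1 was not tested.

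**Figure D5:**
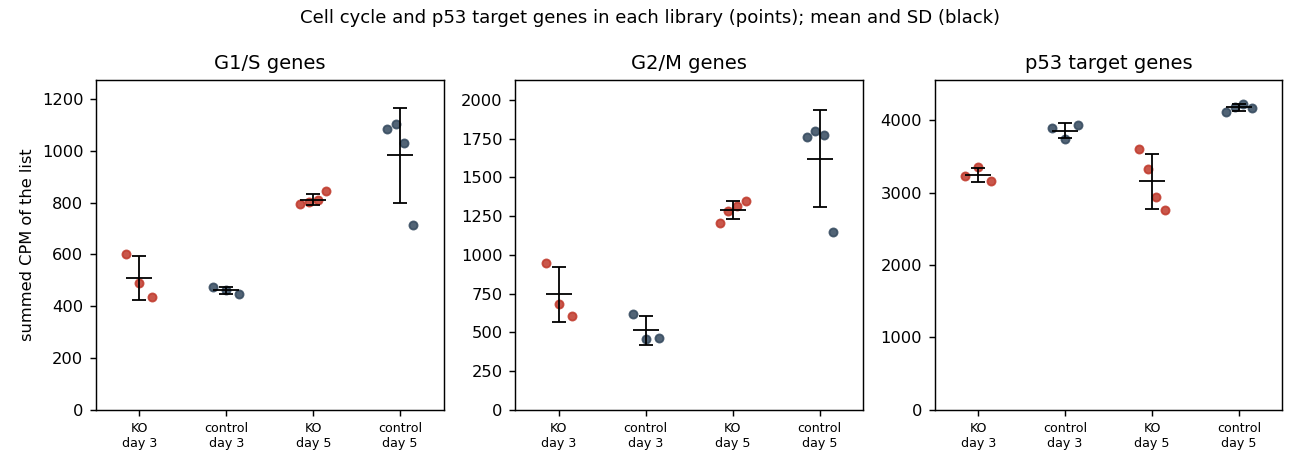
Summed CPM of the G1/S, G2/M and p53 target lists in every library (y axes start at 0), with KO cells in red, control cells dark, and the mean and SD in black. Control day 5 replicate 4 lies below the KO libraries of its day for both cell cycle lists, and the p53 target sums of KO cells lie below those of control cells at both days.

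Some values may include reads of neighbouring genes, since the strand setting of the counting is not given in the sources used here. Trp53bp1 shares 2130 exon bases with Tubgcp4 on the opposite strand, and Tubgcp4 had log2 fold changes of 0.08 at day 3 and 0.17 at day 5, neither past the threshold. These overlaps are from GENCODE gene models over all transcripts, and the models used for counting may differ. Rnf8 had 11703 exon bases there and a counted length of 2031 bases. It shares 1542 exon bases with the gene model Gm28043 on its own strand, and how reads shared by both were counted is not given. Atr shares exon bases with the antisense genes 1700065D16Rik (726 bases) and Gm16794 (462 bases), out of 23629 exon bases over all its transcripts, and with the small RNA gene Gm24004. H2afx shares 141 exon bases with the small RNA gene Gm44335, and Kat5 426 exon bases with Rnaseh2c.

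Over the 14 libraries, the genes most like Atm by the distance between centred log2 CPM values were Ep400 (0.363), Smg1 (0.382) and Trrap (0.419), where the median over all genes was 1.54. All 3 have long transcripts like Atm (10798, 15553 and 12476 bases, against 11964 for Atm), and 1.93% of the genes tested are longer than 10 kb. Smg1 and Trrap are also among the other genes of its family named above. Ep400 was lower at day 5 than at day 3 in KO (-0.30 ± 0.077) and control cells (-0.30 ± 0.076). The genes nearest to Chek1 were Ddias (0.682), Bora (0.686) and Hnrnph1 (0.692), with a median over all genes of 2.31. Ddias was higher at day 5 in KO cells (0.87 ± 0.16) and in control cells (0.87 ± 0.16). The distances are descriptions, with no test, over libraries whose totals differ widely.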

How the data were processed

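RNA was measured by sequencing of 14 MEF libraries made with a stranded poly(A) kit and read as 80 bp paired ends, per the labels' protocols. The authors deposited 1 raw count per gene and library, with the gene's length, per the file headers. The counting tool was featureCounts on the mm10 genome, per the submitters' processing notes. Aligner, annotation release and strand setting: not given in the sources used here. Rows without an identifier (909, with 0.194% to 0.315% of counts) were left out of totals and tests, and 112 genes of the Y chromosome, Xist and Tsix were left out of the tests.

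Counts were tested with edgeR 4.0.16 (R 4.3.3): filterByExpr, TMM scaling and 1 quasi-likelihood fit of all 14 libraries with a mean per group. P-values are two-sided and were adjusted by Benjamini-Hochberg over 14327 genes in each comparison, with a threshold of 0.05. CPM values use TMM-scaled totals, and RPKM also the deposited gene length. The steps were run on simulated counts with the same KO effect at both days. Those counts held no embryo, litter or sex effects, so that run does not bear on them. Depth was 2182919 to 39113170 counts, and low totals widen the error of low genes. Alternatives (26) covered DESeq2 1.42.0, limma-voom (limma 3.58.1), scaling, filtering, thinning, sex, replicate blocks and leaving out each library.

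KO and control libraries of the same replicate number come from different embryos. Same-numbered KO libraries of the 2 days come from 1 embryo for replicates 2 to 4, as do control replicates 1 and 3, per the labels, and their deviations from group means correlated between -0.023 and 0.204. For the day comparisons and the difference, the embryo block was a term in the edgeR fit. Between KO and control cells it was a correlation among libraries of the same embryo in limma-voom (0.0403).

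The 10 genes and the gene lists were chosen with earlier results of these data known. All 10 genes are named in every comparison. From each list and KO comparison, up to 3 called genes with the smallest adjusted p are named, as are overlapping genes and the 3 nearest genes to Atm and to Chek1. Other values of a named gene were added after they were seen. Promoter sequences are from RefSeq (GRCm38.p6, the build also called mm10). Protein sequences were not used here.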

Additional observations from a re-analysis of the deposited data

Results flagged for a closer look

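Atr in control day 5 replicate 4, at 40.65 CPM, lay far below the other 3 control libraries of that day (49.9 to 50.4 CPM). Its gap to the nearest was 0.94 of the range of the group, above the Dixon limit of 0.829 for 4 samples. Of 22 groups tested, this was the only 1 beyond the limit, and chance alone passes about 1 in 20. That library is the only male control and the only one from litter 219. The KO libraries of that day, at 67.3 to 73.0 CPM, did not overlap either value. The log2 fold change of Atr at day 5 was 0.56 with this library and 0.49 without it.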

How the results depend on the processing

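Among the 10 genes, every call at day 3 (Prkdc, Chek2, Rnf168) and that of Atr at day 5 held in 26 of 26 alternatives. Chek2, H2afx and Rnf168 at day 5 held in 25, all but thinning. Kat5 passed in 26 at day 5 and in 25 at day 3, where it had -0.34 (adjusted p = 0.133) when thinned. Over the 10 genes and 5 comparisons, 1191 of 1290 recomputed values kept direction and side of the threshold. Another 30 newly passed, 16 no longer passed and 53 changed sign. No value that changed sign had passed as reported.

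Thinning to 2182919 counts lowered the genes called to 4706 at day 3, 4629 at day 5, 898 for the difference, 959 between days in KO and 3484 in control cells, against 7288, 7519, 2051, 1725 and 5481. It left 1 of the 10 genes at day 5 and 4 between days in control cells, and 22 and 16 pathway genes at days 3 and 5, against 41 and 35. Fewer counts were available by construction. It left 4 and 2 G1/S genes at days 3 and 5, against 10 and 6. Total-count and upper-quartile scaling left 3 G1/S genes at day 5, where 7569 and 7752 of all genes passed. With sex as a covariate 19 and 4 G2/M genes passed at days 3 and 5, against 11 and 7, where 6603 and 6776 of all genes did. Leaving out 1 library gave 1024 to 2549 genes between days in KO cells, with the lowest without KO day 3 replicate 4, and 1106 and 1108 without KO day 5 replicates 3 and 4. It gave 1275 to 2745 for the difference, with the lowest without control day 3 replicate 3. For the 10 genes it gave 0 to 4 between days in KO cells and 0 to 1 for the difference. Of the 10, DESeq2's Wald test and limma-voom each called 2 between days in KO cells, the compared groups alone, the embryo block, sex and thinning each 3, and total-count and upper-quartile scaling each 4. Over all genes these alternatives called from 959 (thinning) to 2305 (total-count scaling). The cause was not tested.

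Upper-quartile scaling shifted the median of all genes by 0.13 at day 3 and 0.12 at day 5, and made 62.1% and 64.4% of calls higher, against 48.4% and 50.1%. With it, Atr passed at day 3 (0.30, adjusted p = 0.0376), and Prkdc and Trp53bp1 at day 5 (0.39 and 0.16). Total-count scaling made 72.8% of calls higher between days in KO cells and 68.1% for the difference, against 41.3% and 50.0%.

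Values that changed sign, on the log2 scale, follow. At day 3, Chek1 was 0.060 (limma-voom), 0.064 (embryo block), 0.14 (sex) and 0.041 (upper quartile). H2afx was 0.0046 (replicate block by number), 0.066 (sex), 0.021 (thinned) and 0.034 (upper quartile). Mdc1 was 0.0044 and 0.0010 (DESeq2 test and size factors), 0.030 (groups alone), 0.0041 (limma-voom), 0.012 (unfiltered), 0.0057 and 0.031 (embryo and number blocks), 0.098 (sex) and 0.12 (upper quartile). Rnf8 was -0.048 (thinned) and -0.0022 (total count), and Trp53bp1 0.031 (upper quartile). At day 5, Mdc1 was 0.015 (sex), 0.11 (thinned) and 0.042 (upper quartile). For the difference, Atm was -0.012 and -0.010 (DESeq2 test and size factors) and -0.018 (unfiltered), Mdc1 0.15 (thinned) and 0.024 (total count), Rnf168 0.0008 (total count), and Rnf8 -0.037 (limma-voom). Between days, thinning gave Rnf8 -0.0094 in control and Trp53bp1 -0.069 in KO cells. Leaving out 1 library at day 3 gave Atm -0.13 to 0.22, Chek1 -0.52 to 0.16, H2afx -0.26 to 0.016, Mdc1 -0.0405 to 0.016 and Rnf8 -0.11 to 0.13. It gave Chek1 -0.062 to 0.16 at day 5, and for the difference Atm -0.12 to 0.23, Chek1 -0.081 to 0.60 and Rnf8 -0.057 to 0.18.

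KO and control samples of 1 number share only that number (correlations -0.17 to 0.43), and blocking on it changed no call of the 10 genes between KO and control. Low totals limit Chek1 and Chek2 most, which had as few as 17 and 24 counts in the shallowest library.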

Other observations

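Atm, Prkdc and Chek2 each start close to a gene that runs the other way, and these pairs were looked at after the values had been seen. Npat, whose start lies 307 bases from that of Atm and whose product drives histone gene transcription, averaged 53.6 ± 4.65 CPM in KO and 62.8 ± 7.01 CPM in control cells at day 3 (SD, n = 3 each), and did not pass at either day (log2 fold changes -0.23 and -0.03). Mcm4, a subunit of the replicative helicase that starts 466 bases from Prkdc, averaged 49.0 ± 9.07 CPM in KO and 39.8 ± 1.04 CPM in control cells at day 3 (adjusted p = 0.12), and 73.1 ± 4.65 CPM in KO and 109.9 ± 22.4 CPM in control cells at day 5 (-0.59 ± 0.14, adjusted p = 0.00261), where the groups overlapped. Prkdc had 0.78 at day 3 and 0.27 at day 5. Hscb, an iron-sulfur cluster co-chaperone that starts 202 bases from Chek2, averaged 6.43 ± 1.19 CPM in KO and 9.46 ± 1.03 CPM in control cells at day 3 (-0.57 ± 0.21, adjusted p = 0.0334), with no overlap. At day 5 Hscb averaged 4.47 ± 0.393 CPM in KO and 4.68 ± 1.11 CPM in control cells and did not pass, while Chek2 did.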
